A study of Mus musculus with 47 samples.

Results

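The TOP mRNAs followed here were those of 9 genes that encode neither ribosomal proteins nor initiation factors: the elongation factor genes Eef1a1, Eef2, Eef1b2, Eef1g and Eef1d, together with Tpt1, Npm1, Nap1l1 and Pabpc1. They were found by the RefSeq names of the 3′ UTR rows. The 9 genes had 18 of the 28190 mRNA transcripts listed, and each gene is described by its transcript with the most reads. The measurements were SLAM-seq libraries, in which the uridine analogue 4-thiouridine (4sU) enters new RNA and is read as T>C conversions near the 3′ end of mRNAs. The cells were mouse P19 embryonal carcinoma cells, a pluripotent line that turns into neurons with retinoic acid, either undifferentiated (D0) or after 6 days in NDiff 227 medium with 500 nM retinoic acid (D6). D0 cells received 20 µM and D6 cells 500 µM 4sU, so that dose and state cannot be told apart in any labeling value. In the catabolic assay, cells were labeled for 15 h, washed and kept in 10 mM UTP, and in the anabolic assay label was followed as it was taken up. Where the study's methods describe the normalization they give a slightly shorter labeling time for the start of the catabolic assay, and the labeling time of the protocol is used here. Each of 16 groups of state, assay and time held 3 libraries, apart from the second-last catabolic time at D6 with 2, which gave 47 in all. The study's figure legends call the replicates biological, while the labels do not say whether they came from separate cultures. The p-values measure the spread between these libraries.

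TOP mRNAs begin with a C followed by a run of pyrimidines, the 5′ terminal oligopyrimidine (TOP) motif, and are known for translation that rises and falls together under the control of mTOR and LARP1. Elongation factors carry out the cycle of the ribosome: eEF1A, encoded by Eef1a1, delivers aminoacyl-tRNA, its exchange factor holds the products of Eef1b2, Eef1d and Eef1g, and eEF2 moves the ribosome along the mRNA. Of the other genes, Pabpc1 encodes the cytoplasmic poly(A)-binding protein, Npm1 nucleophosmin of the nucleolus, Nap1l1 a histone chaperone and Tpt1 the translationally controlled tumor protein.

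The start of the gene was looked at first, because the motif defines the class. RefSeq promoter sequences (GRCm38.p6) were at hand for 5 of the 9 members and not for Eef1g, Eef1d, Npm1 and Pabpc1. A run was searched on the transcribed strand as a C followed by at least 4 bases that are each C or T. Only Nap1l1 had such a run at the annotated first base, as had 2.51% of the 32851 promoters searched. In Eef2 a run of 7 bases began at base 16, and a run began within the first 20 bases in 27% of promoters. The first 30 bases from the annotated start are shown for these 2 members and, for contrast, for Eef1a1, with runs in capitals.
Nap1l1: CTTTTTTagcgccatctgctcgcggcgccg
Eef2: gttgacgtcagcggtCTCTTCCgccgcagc
Eef1a1: ttcccgagggtgggggagaacggtatataa
These windows lay at chr10:111473227-111473256 on the plus strand for Nap1l1, at chr10:81176631-81176660 on the plus strand for Eef2 and at chr9:78481695-78481724 on the minus strand for Eef1a1. The window of Eef1a1 ends in the letters tatataa and began no run of its own, but its first bases are the end of a run, CCCTCTTCCC, that began 5 bases before the annotated start and is left in lower case. In Eef1b2 and Tpt1 a run began at bases 33 and 41. A run began within the first 50 bases in 4 of the 5 members and in 50.4% of promoters. The annotated starts were not compared with measured 5′ ends of the mRNAs. A match, or the lack of one, describes only the letters near these starts and does not show whether an mRNA carries the motif.

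The 3′ UTRs that were counted (mm10) lay at chr9:78478453-78478733 for Eef1a1, chr10:81182083-81182509 for Eef2, chr1:63179613-63180486 for Eef1b2, chr15:75894796-75895552 for Eef1d and chr19:8978103-8978180 for Eef1g. Those of the other genes lay at chr14:75848102-75848303 for Tpt1, chr11:33152498-33152813 for Npm1, chr15:36595658-36596099 for Pabpc1, and in 2 pieces at chr10:111496076-111496105 and chr10:111496754-111496886 for Nap1l1. They were from 78 bases (Eef1g) to 874 bases (Eef1b2) long, and T made up from 21.8% (Eef1g) to 36.8% (Nap1l1) of them. The 8 transcripts of Eef1d shared 1 interval. Npm1 had a second 3′ UTR at chr11:33154925-33155211, used by NM_001252261.1, which was counted apart. Processed copies of several of these genes exist in the genome, and reads that the aligner could not place between a gene and a copy are uncertain.

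Library depth ran from 1489528 to 11677046 reads in 3′ UTRs. Levels below are reads scaled to 1000000 of these (CPM) and are compared only between libraries, never between genes. The labels of the states held for the markers tested: the summed CPM of 7 neuronal markers was between 469 and 655 at D0 and between 8410 and 9835 at D6, and that of 7 markers of undifferentiated cells fell from between 1210 and 1777 to between 7.77 and 22.9. edgeR called 6 of 7 neuronal markers higher, 4 of 4 markers of undifferentiated cells that could be tested lower, 1 of 2 glial markers higher and 2 of 3 mesoderm and endoderm markers lower. Among the first, Dcx, a microtubule protein of young neurons, rose from 5.15, 15.6 and 3.38 CPM to 1822, 1778 and 2021 CPM. The log2 difference was 7.81 for Dcx, 6.28 for Elavl4, -8.07 for Utf1, -7.79 for Tdgf1, 6.21 for the glial marker Fabp7, -7.38 for Eomes and -4.89 for Acta2. Dppa5a and Zfp42 of the second list were at 0 in all 6 libraries and Nanog at 0 at D6. The summed level of 6 glial markers was 139 to 220 CPM at D0 and 193 to 395 CPM at D6, with Gfap, Sox10, Olig2 and Aqp4 at 0 at D6. That of 7 mesoderm and endoderm markers was 103 to 179 CPM at D0 and 1.31 to 16.9 CPM at D6, with Sox17, Gata4 and Foxa2 at 0 in both states.

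Some libraries stood apart in the composition of their reads, and this bears on Eef1a1 before all other members. Over 3472 transcripts other than those of the members, the main axis of the deviations of D0 libraries from their group means held 57.8% of their variance. Along it, in log2 units from the median profile of the state, libraries 56 (no 4sU), 26 (15 h of 4sU) and 72 (9 h of uptake) of D0 lay at 47.5, 44.1 and 26.6, and the other 21 between -5.97 and 4.87. On the same axis, library 38 of D6 (no 4sU) lay at 17.7, the 3 libraries of D6 9 h after removal of 4sU at 18.2, 14.8 and 24.6, library 14 (the third catabolic time) at 19.4 and the other 18 between -6.06 and 6.46. Eef1a1, which was not used for the axis, was at 46 to 165 CPM in the 3 libraries of D0 and at 689 to 1529 CPM in the other 21. At D6 it was at 151 CPM in library 38, at 111 to 222 CPM 9 h after removal, and at 467 to 2336 CPM in the other 19. Eef2 was not low with it: its level was 3991 to 4935 CPM in the 3 libraries of D0 and 2740 to 3836 CPM in the others. Pabpc1 and Nap1l1 were lower in these 3, at 69.6 to 116 CPM against 159.8 to 359 CPM and at 163 to 191 CPM against 272 to 421 CPM. Npm1 was lower in them too, at 713 to 988 CPM against 1018 to 1614 CPM. The part of this axis in the results was not tested. Reads and label kept are also given without libraries 26, 38, 56 and 72, an alternative chosen after seeing the data, whereas the D6 group at 9 h after removal consists of such libraries alone. At D6, the number of transcripts with at least 10 reads ranged from 5722 to 16954 per library, against 13527 to 17590 at D0.

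**Figure D1:**
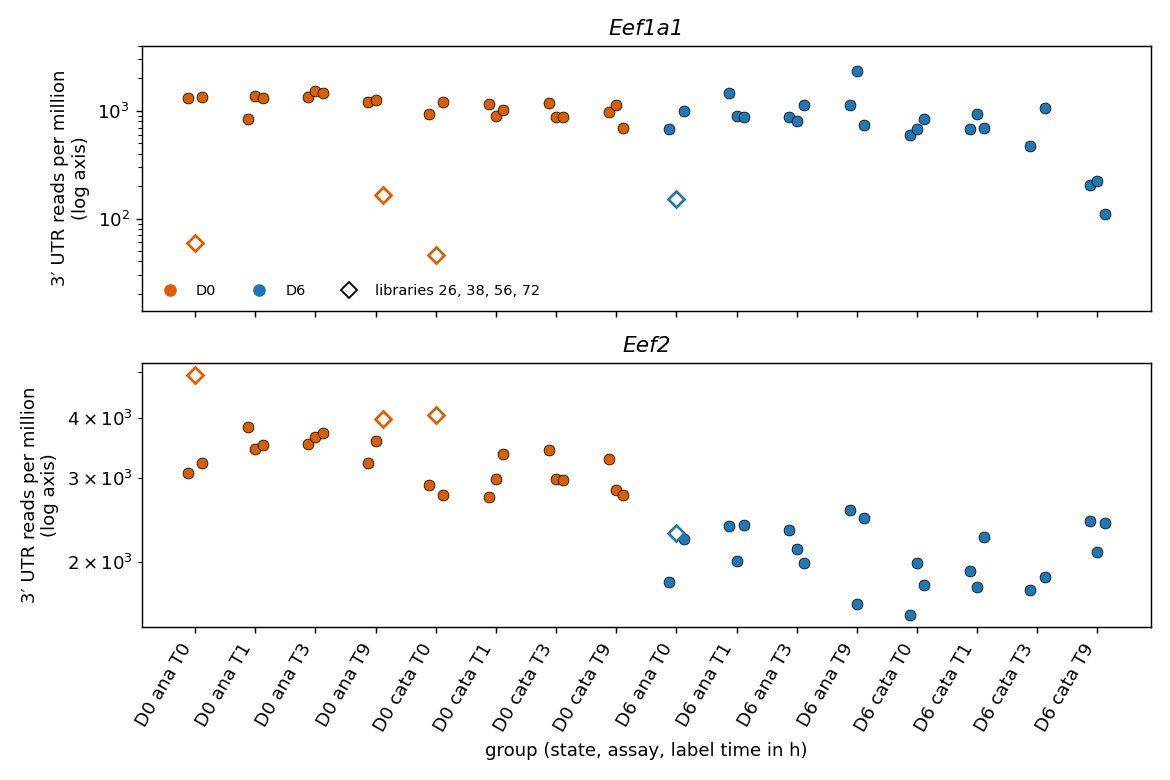
Reads of Eef1a1 (top) and Eef2 (bottom) in each of the 47 libraries, in 3′ UTR CPM on a log axis, by state, assay and label time. Points are libraries, and open diamonds are libraries 26, 38, 56 and 72, which lie at 46 to 165 CPM for Eef1a1 and do not lie low for Eef2.

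The first comparison asked whether the mRNA levels of these genes differed between the states in cells without 4sU. Npm1, Nap1l1 and Eef1b2 were lower at D6, and no member was higher by the test. edgeR's quasi-likelihood test called 2115 of 16091 transcripts (13.1%), 1246 of them higher (7.74%) and 869 lower (5.4%), and 3 of the 8 members that could be tested, all lower. The median log2 difference was -0.97 over these 8 members and -0.04 over all transcripts tested. In bulk libraries, fewer cells of a type and less RNA per cell cannot be told apart.

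Npm1 was at 1353, 936 and 1389 CPM at D0 and at 354, 243 and 345 CPM at D6. All libraries of D6 were below all of D0, and the difference was -1.96 on the log2 scale (SE 0.24, edgeR adjusted p = 0.000459). Across all 47 libraries, with and without 4sU, its level ran from 713 to 1614 CPM at D0 and from 95.3 to 354 CPM at D6. The second 3′ UTR of Npm1 fell as well, from 492, 353 and 620 CPM to 120, 37.2 and 76.2 CPM (log2 difference -2.65, SE 0.40, edgeR adjusted p = 0.00155). Without the 4 libraries that stood apart the differences were -1.94 for Npm1 (edgeR adjusted p = 0.000762) and -2.47 for its second 3′ UTR (edgeR adjusted p = 0.00301).

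Nap1l1 was at 363, 163 and 364 CPM at D0 and at 102, 67.2 and 97.5 CPM at D6, a log2 difference of -1.71 (SE 0.34, edgeR adjusted p = 0.00811). The lowest library of D0 was library 56, and it still lay above all libraries of D6. Without the 4 libraries that stood apart the difference was -1.83 (edgeR adjusted p = 0.0036). Eef1b2 was at 1018, 1051 and 957 CPM at D0 and at 467, 494 and 594 CPM at D6, which is -0.97 on the log2 scale (SE 0.23, edgeR adjusted p = 0.0187). Over all libraries Eef1b2 ranged from 802 to 1178 CPM at D0 and from 205 to 719 CPM at D6, with no overlap. How many of all transcripts separate in this way was not counted. The D6 libraries 9 h after removal, which stood apart in read composition, lay at 205 to 366 CPM and the other D6 libraries at 305 to 719 CPM. The call of Eef1b2 was lost without D6 library 37 (adjusted p = 0.0985) or library 38 (adjusted p = 0.0675), where the difference was -0.88 and -0.96. Without all 4 libraries that stood apart it was called (-0.86, edgeR adjusted p = 0.0306).

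Eef2 and Eef1d did not overlap between the states and did not pass the test. Eef2 was at 3078, 4935 and 3226 CPM at D0 and at 1815, 2298 and 2233 CPM at D6 (log2 difference -0.86, SE 0.28, edgeR adjusted p = 0.0671). DESeq2 called it lower (-0.84, adjusted p = 0.0164), as it did 8.79% of all transcripts, and over all 11 alternatives its adjusted p lay between 0.0164 and 0.249. Over all libraries Eef2 ran from 2740 to 4935 CPM at D0 and from 1544 to 2566 CPM at D6. Eef1d was at 153, 141 and 146 CPM at D0 and at 30.7, 78.6 and 84.7 CPM at D6 (log2 difference -1.18, SE 0.43, edgeR adjusted p = 0.104). Without the 4 libraries that stood apart the differences were -0.60 for Eef2 and -1.33 for Eef1d (edgeR adjusted p = 0.0531 and 0.139). Such separation of 3 libraries from 3 with D6 below D0 was seen for 17.1% of all transcripts tested, and for 36.3% in either direction. Among the 8 members tested it was 5 below and 1, Tpt1, above.

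Eef1a1 was at 1322, 59.8 and 1344 CPM at D0 and at 674, 151 and 989 CPM at D6, with one library in each state far below the other pair. The log2 difference was -0.53 with an SE of 0.84 (edgeR adjusted p = 0.776). Without the libraries that stood apart it was -0.64 (edgeR adjusted p = 0.107), and with single libraries left out it ranged from -1.10 without library 39 to -0.08 without library 38. It was -1.08 without library 56, -0.17 without library 55 and -0.15 without library 57. Pabpc1 was at 263, 69.6 and 254 CPM at D0 and at 66.6, 67.7 and 157 CPM at D6, and the groups overlapped (log2 difference -0.97, SE 0.50, edgeR adjusted p = 0.266). Tpt1 alone had a difference above 0: it was at 26.7, 58 and 51.5 CPM at D0 and at 68.6, 83.3 and 92.3 CPM at D6 (log2 difference 0.81, SE 0.49, edgeR adjusted p = 0.354). Without the 4 libraries that stood apart the differences were -1.16 for Pabpc1 and 1.07 for Tpt1 (edgeR adjusted p = 0.122 and 0.231). Eef1g could not be tested. Its short 3′ UTR held 627 reads over all 47 libraries and none in 16 of them, so that its labeling is not reported.

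**Figure D2:**
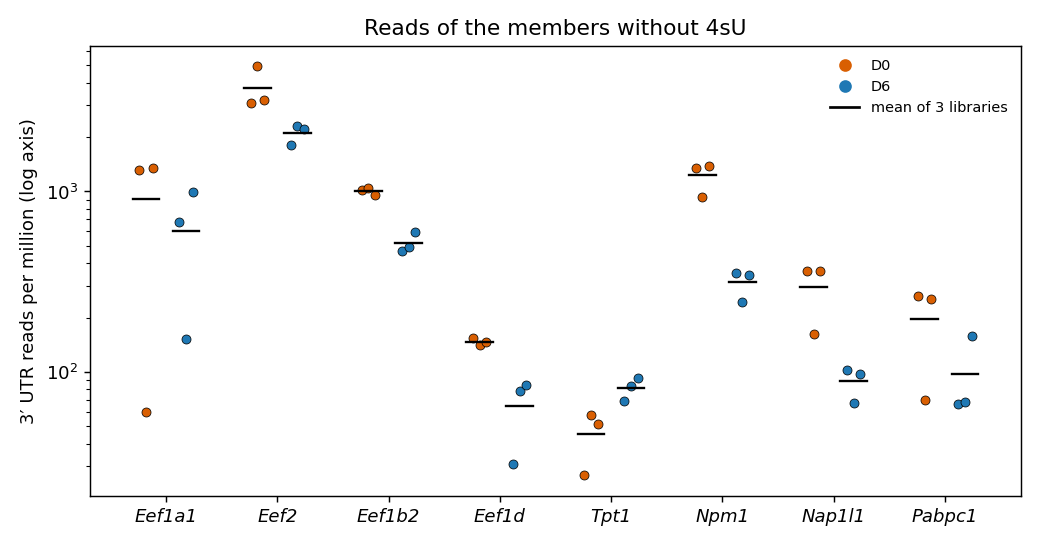
Reads of 8 members in the libraries without 4sU, in 3′ UTR CPM on a log axis, with D0 in orange and D6 in blue. Points are libraries and bars the mean of 3. Npm1, Nap1l1, Eef1b2, Eef2 and Eef1d lie lower at D6 in every library, and Eef1a1 and Pabpc1 overlap.

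Counts for the related genes stand against 13.1% of all transcripts called, 7.74% higher and 5.4% lower. Among 7 other elongation factors and their kinase, 1 was called, and the median log2 difference was -1.12. This was Eif5a, whose product carries hypusine and helps the ribosome past difficult peptide bonds, at 1262, 656 and 1365 CPM at D0 and at 259, 163 and 278 CPM at D6 (log2 difference -2.21, SE 0.30, edgeR adjusted p = 0.000864). Eef1a2, the eEF1A gene of mature neurons and muscle, was at 5.71, 0 and 0 CPM at D0 and at 4.16, 0 and 12.3 CPM at D6, and was not called (edgeR adjusted p = 0.781). None of 8 genes for the modification of eEF2, of 4 eEF1A methyltransferases and of 5 mitochondrial elongation factors was called, with medians of -0.51, -0.93 and -1.17.

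Of 4 poly(A)-binding proteins and interactors tested, Paip1, which binds the poly(A)-binding protein, rose from 80.9, 34 and 71.5 CPM to 233, 125 and 181 CPM (log2 difference 1.55, SE 0.39, edgeR adjusted p = 0.025). Of 4 genes of the nucleoplasmin and NAP1-like families, Set, a histone chaperone, fell from 430.3, 331 and 531 CPM to 201, 185 and 237 CPM (log2 difference -1.04, SE 0.26, edgeR adjusted p = 0.0218). Of 8 other TOP genes that the study listed, Eif4b, an initiation factor, fell from 265, 365 and 205 CPM to 114, 75.2 and 116 CPM (log2 difference -1.49, SE 0.35, edgeR adjusted p = 0.0193). Of 58 ribosomal protein genes tested, 5 were called, all lower, against the 5.4% of all transcripts called lower, and their median was -0.51. The genes whose level over the 16 group means followed the mean of the members most closely were Rbbp7 (Pearson r = 0.98), Myl12a (0.98), Prdx1 (0.98), Tomm70a (0.98) and Tars (0.98), out of 2237 genes, where the groups share cell state and libraries. Among the members, Npm1 and Nap1l1 were most alike (r = 0.95) and Eef1d and Tpt1 least (r = -0.56).

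The second comparison asked whether 15 h of 4sU changed the reads. edgeR called 6 of 17569 transcripts at D0 (0.0342%, with 0.0171% higher and 0.0171% lower) and 10 at D6, all lower (0.0569%), and no member in either state. The difference between the states was called for none, with 846 transcripts at an unadjusted p under 0.05 and 75 called by DESeq2, no member among them. For Eef2 the reads with 4sU were 2903, 4074 and 2765 CPM at D0 and 1544, 1987 and 1790 CPM at D6. For Npm1 they were 1079, 713 and 1271 CPM at D0 and 284, 252 and 328 CPM at D6. Both genes therefore kept the order of the states that they had without 4sU.

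Labeling was read as the percent of covered T positions that were read as C. Without 4sU this was 0.00962% to 0.0186% for Eef1a1 at D0 and 0.00474% to 0.0105% at D6, and 0.00544% to 0.0517% for Eef2 over both states. A higher value without 4sU was seen in Npm1 (0.0983% to 0.477% at D0), in Eef1b2 (up to 0.51% at D6) and in Pabpc1 (0.47% in library 56). After 15 h of 4sU, Eef1a1 was converted at 0.944%, 1.34% and 1.04% at D0 and at 3.84%, 4.21% and 4.27% at D6. Eef2 was at 1.04%, 1.21% and 1.06% at D0 and at 3.68%, 3.93% and 3.35% at D6. Npm1 was at 1.34%, 1.40% and 1.63% at D0 and at 6.59%, 5.36% and 6.26% at D6. All 3 genes were above their values without 4sU in every library, with the narrowest gap in Npm1 at D0, where the mean without 4sU was 18% of the mean after 15 h and library 56 was at 32.7%. All 3 were higher at D6, where the dose was higher too.

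Relative to the pooled rate of all mRNAs in the same library, 15 h labeling of the members did not pass the test between the states. edgeR called none of 14426 transcripts, with 729 at an unadjusted p under 0.05, 15 called by DESeq2 and 30 by limma, no member among them. Estimates ran from -0.38 for Eef1b2 (SE 0.78) to 0.91 for Nap1l1 (SE 0.91) on the log2 scale. Those of Eef1a1 and Eef2 were 0.20 (SE 0.40) and 0.02 (SE 0.29), and that of Eef2 changed sign with the median rate as reference (-0.03).

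The decay of label was compared next. Of the label present after 15 h, Eef1a1 and Eef2 kept means of 43.7% to 56.8% after 9 h in both states, and all 3′ UTRs pooled kept 29.2% and 19.1%. The conversion rate of Eef1a1 fell to 0.654%, 0.5% and 0.733% at D0 and to 2.67%, 2.02% and 1.77% at D6. As a share of the mean at 0 h, this was 59%, 45.1% and 66.2% at D0 and 65%, 49.2% and 43.2% at D6. Eef2 kept 45.1%, 58% and 48.6% at D0 and 44.7%, 47.5% and 39% at D6. The pooled rate of all 3′ UTRs kept 29%, 28.2% and 30.5% at D0 and 20.4%, 19.1% and 17.7% at D6. The states overlapped for both elongation factors and did not for the pooled rate. With the rate without 4sU subtracted, the means were 56.2% and 52.3% for Eef1a1, 48.7% and 43.6% for Eef2, and 19.5% and 16.1% for the pooled rate.

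Of the 8 members, 4 kept less label at D6 than at D0 in every library, namely Npm1, Nap1l1, Pabpc1 and Eef1d. For Nap1l1 and Pabpc1 this depended on a single library at 0 h, library 27. Npm1 kept 38.7%, 41.7% and 42.6% at D0 and 16.8%, 22.0% and 16.9% at D6, a difference of -22.4 percentage points between the means. With the rate without 4sU subtracted it kept 25.2%, 28.9% and 30.03% at D0 and 14.6%, 19.9% and 14.7% at D6, and the difference was -11.7 points, still with no overlap. Pabpc1 kept 45.8%, 45.7% and 50.1% at D0 and 37.3%, 12% and 17.7% at D6. Nap1l1 kept 24.7%, 21.3% and 55.2% at D0 and 20.6%, 18.6% and 20.6% at D6, and with the rate without 4sU subtracted its states overlapped. Eef1d kept 54.8%, 96.1% and 80.6% at D0 and 15.6%, 37.3% and 1.1% at D6, on 1817 to 9211 covered T positions at D6, and the lowest of these libraries had a single conversion, a rate of 0.055% with a 95% Wilson interval of 0.0097% to 0.311% that covers counting error only. For each of the 4 the two-sided exact permutation test gave p = 0.1, the smallest that 3 libraries against 3 allow. Over 10666 transcripts covered in all these libraries, 14.5% had all libraries of D6 below all of D0 and 3.65% the reverse (18.2% in all), and the median share kept was 17.4% at D0 and 12.3% at D6. Without library 26 in the mean at 0 h, the same 4 members did not overlap, and the mean kept at D0 was 63.3% for Eef1a1, 53.1% for Eef2 and 40.2% for Npm1. The D6 libraries at 9 h are those at 14.8 to 24.6 on the axis of read composition.

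**Figure D3:**
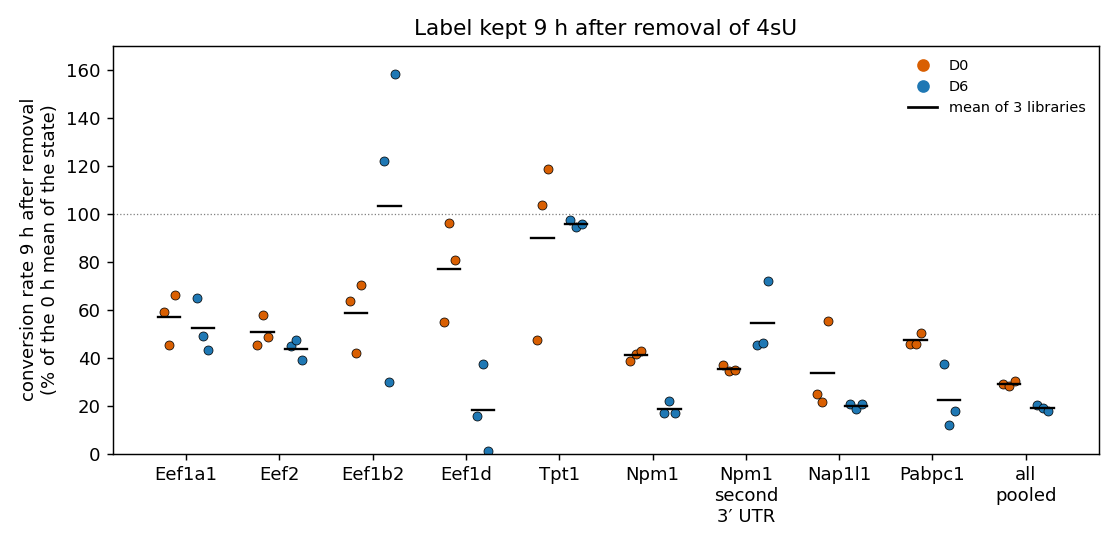
Conversion rate 9 h after removal of 4sU, as a percent of the mean rate at 0 h in the same state (dotted line at 100), for 8 members, the second 3′ UTR of Npm1 and all 3′ UTRs pooled. Points are libraries and bars the mean of 3. Eef1a1 and Eef2 lie at 39% to 66.2% in both states, and Npm1 lies at 38.7% to 42.6% at D0 and at 16.8% to 22.0% at D6. The rate without 4sU is not subtracted here, and with it subtracted the difference of Npm1 was -11.7 rather than -22.4 points.

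Eef1b2 and Tpt1 varied widely between libraries, and their states overlapped. Eef1b2 kept 63.7%, 42.1% and 70.5% at D0 and 122%, 29.7% and 158% at D6. Tpt1 kept 47.5%, 104% and 119% at D0 and 97.3%, 94.7% and 95.7% at D6, where its rate at 0 h itself ranged from 0.456% to 3.12%. The second 3′ UTR of Npm1 kept 36.9%, 34.4% and 34.9% at D0, close to the first, and 45.1%, 45.9% and 72% at D6, where it had only 135 to 2697 covered T positions. All of its libraries at D6 were above all of D0, as in 3.65% of transcripts, while the first 3′ UTR of Npm1 differed in the opposite direction.

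The same question was tested relative to all mRNAs, with conversions per covered T position set against the pooled rate of the library. edgeR called 29 of 14426 transcripts at D0 (0.201%, with 0.146% higher and 0.0555% lower) and 44 at D6 (0.305%, with 0.194% higher and 0.111% lower), and no member in either state. The split into higher and lower calls changed with the setting. At D0 it was 119 and 598 with DESeq2, 183 and 189 with limma and 44 and 1 with the median rate as reference. At D6 it was 96 and 468, 120 and 395, and 56 and 5. The median over all transcripts was -0.66 in both states, so that 0 is not the middle of the transcripts. The median of the 8 members was 0.89 at D0, with all 8 above 0, and 0.72 at D6, with 6 above 0. For 48 ribosomal protein genes the medians were 1.35 and 1.86, with 3 and 8 called higher.

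Eef2 had a log2 difference of 1.21 at D6 (SE 0.30, edgeR adjusted p = 0.055) and of 0.81 at D0 (SE 0.30, adjusted p = 0.235). At D6 it passed the threshold under 13 of 30 alternatives, and its adjusted p ranged from 0.00842 to 0.268. Eef1a1 had 1.46 at D6 (SE 0.41, edgeR adjusted p = 0.129) and 0.97 at D0 (SE 0.41, adjusted p = 0.257). It passed under 5 of 30 alternatives at D6, with an adjusted p from 0.00263 with DESeq2 to 0.315. DESeq2 called 4 members higher at D6, the others being Eef1b2 (2.48, adjusted p = 0.0331) and Tpt1 (2.39, adjusted p = 0.0412), for which edgeR gave adjusted p = 0.191 and 0.427, against 96 higher (0.666%) and 468 lower of 14425 transcripts. At D0, limma with the rate without 4sU subtracted called Eef2 and Eef1a1 higher (adjusted p = 0.0437 and 0.0229), against 1.9% of the transcripts it tested. In both genes the estimate was above 0 under every alternative run, in both states. Without libraries 26, 38, 56 and 72 both were called at D6 (edgeR adjusted p = 0.0153 for Eef2 and 0.0257 for Eef1a1), with estimates of 1.21 and 1.46. None of these libraries belongs to the groups compared, so the estimates stayed the same and only the spread shared over the fit changed. Under this setting 67 of 14426 transcripts were called, 51 of them higher. The D6 libraries at 9 h, at 14.8 to 24.6 on the axis of read composition, stayed in that test, and library 14 was not part of it. Npm1 had 0.49 at D0 (SE 0.40) and -0.02 at D6 (SE 0.40), and Nap1l1 had 0.20 (SE 0.91) and 0.10 (SE 0.91). The second 3′ UTR of Npm1 had 0.29 at D0 (SE 0.66) and 1.59 at D6 (SE 0.69, edgeR adjusted p = 0.290). At D6 it passed the threshold under 1 of 30 alternatives.

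The difference between the states in relative label kept was called for no transcript by edgeR, with 1246 at an unadjusted p under 0.05. DESeq2 called 75 and limma 13, no member among them. The estimates were 0.49 for Eef1a1 (SE 0.57), 0.41 for Eef2 (SE 0.42), -0.52 for Npm1 (SE 0.56) and -0.49 for Pabpc1 (SE 1.38). A difference between the states was therefore not shown for any member relative to all mRNAs.

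**Figure D4:**
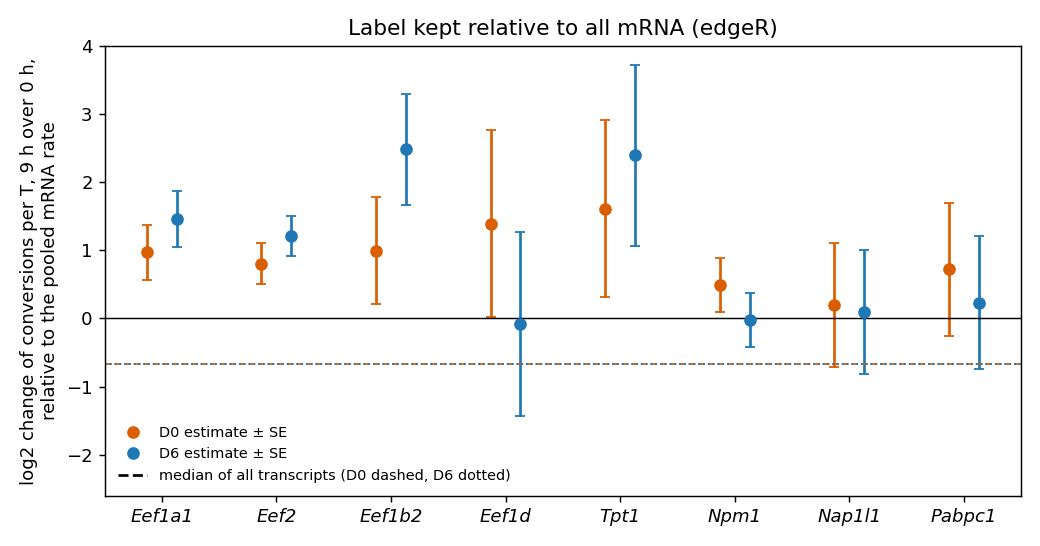
Log2 change of conversions per covered T position from 0 h to 9 h after removal of 4sU, relative to the pooled mRNA rate, for 8 members at D0 (orange) and D6 (blue). Points are edgeR estimates and bars their standard errors; the dashed and dotted lines are the medians over 14426 transcripts (-0.66 in both states). Eef2 at D6 stands at 1.21 with the smallest standard error there, and none passed the adjusted threshold.

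The times between 0 h and 9 h show the course of the loss. The pooled rate was at 99.4% (SD 2.1, n = 3) of the start at the second time at D0 and at 73.1% (SD 1.4, n = 3) at the third, before the 29.2% (SD 1.2, n = 3) at 9 h. At D6 it was at 100.8% (SD 11, n = 3), 49.05% (SD 0.51, n = 2) and 19.1% (SD 1.4, n = 3) at these times. The middle times are 1 and 3 h in the sample labels and 3 and 6 h in the series' design, and the hours at both ends are shared. Eef2 stood at 99.6% (SD 9.4, n = 3) and 90% (SD 1.1, n = 3) at these 2 times at D0 and at 107% (SD 13, n = 3) and 78% (SD 24, n = 2) at D6. Npm1 stood at 105% (SD 6.2, n = 3) and 93.1% (SD 5.9, n = 3) at D0 and at 79.3% (SD 21, n = 3) and 81.3% (SD 23, n = 2) at D6. In Eef2 and Npm1 the largest step between the means came after the third time. By the hours of the labels this is also the longest interval, so that the step is not a rate. In Nap1l1 at D6 the 2 libraries of the third time were at 1.8% and 2.6%, below the 18.6% to 20.6% at 9 h, and one of them (library 14, high on the axis of read composition) had the fewest transcripts with at least 10 reads of all libraries, 5722.

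**Figure D5:**
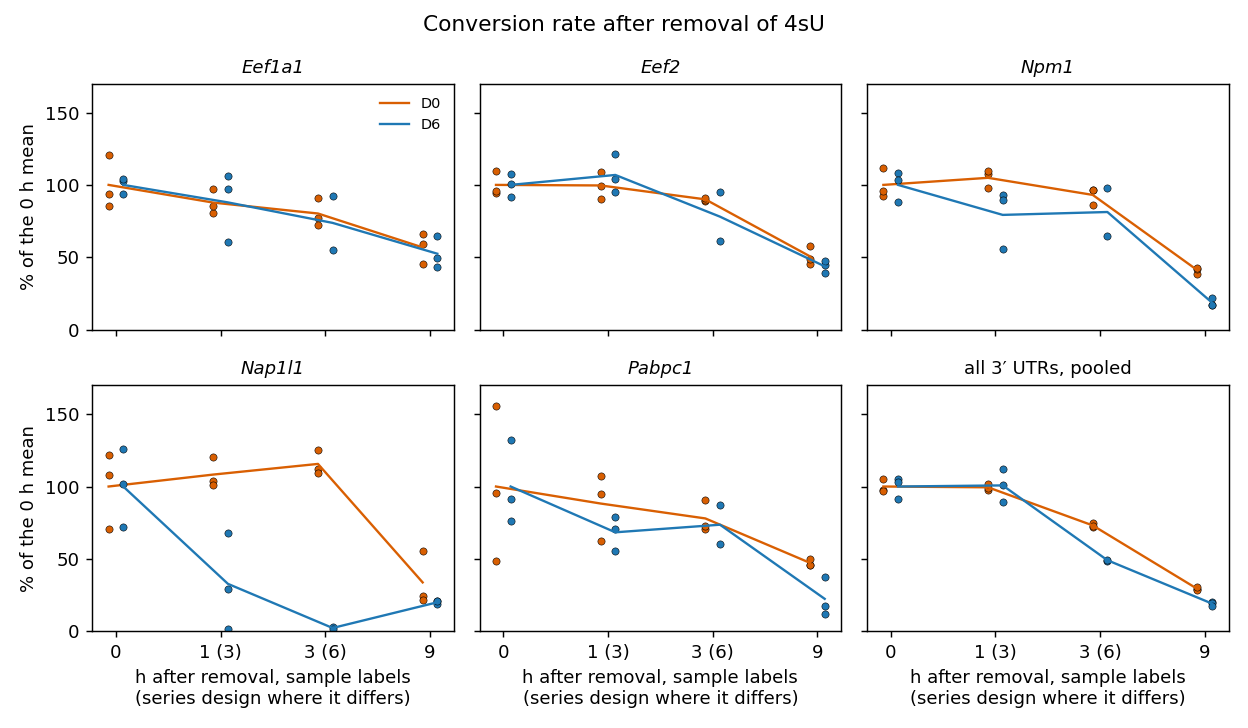
Conversion rate after removal of 4sU, as a percent of the mean at 0 h of the state, for 5 members and all 3′ UTRs pooled, at D0 (orange) and D6 (blue). Points are libraries and lines join the means of 2 or 3 libraries; the times are evenly spaced and not to scale, with the hours of the sample labels and, in brackets, of the series' design. Eef1a1 and Eef2 end at means of 43.7% to 56.8% in both states, and Npm1 ends at a mean of 41% at D0 and 18.6% at D6.

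Decay half-lives were fitted as exponentials, as the study did, and kept with an R squared over 0.6. With all times and the hours of the design, only Eef1a1 met this at D0 (809 min, SE 140) and 3 members at D6, Npm1 (399.7 min, SE 96), Nap1l1 (116 min, SE 33) and Pabpc1 (361 min, SE 83), so that no member had a value in both states. With the times that the labels give, these were 624 min (SE 108) for Eef1a1, 276 min (SE 58) for Npm1, 37 min (SE 13) for Nap1l1 and 254 min (SE 65) for Pabpc1. With single libraries left out, that of Nap1l1 ranged from 71.5 to 151 min. With the hours that both sources share, 0 and 9 h, 4 members had one in both states. Eef1a1 had 661 min (SE 160) at D0 and 579.8 min (SE 79) at D6, and Eef2 549 min (SE 62) and 452 min (SE 42). Npm1 had 419.8 min (SE 45) and 222 min (SE 28), and Nap1l1 344 min (SE 111) and 232 min (SE 71). For Npm1 the states were further apart than the standard errors, also with the rate without 4sU subtracted (295 min, SE 39, and 207 min, SE 29), and for Eef1a1 they were closer than the standard error at D0. Without library 26 the values at D0 were 819.6 min for Eef1a1, 591 min for Eef2, 411 min for Npm1 and 357 min for Nap1l1. Eef1d and Pabpc1 had a value only at D6, 218 min (SE 80) and 249.8 min (SE 87). The half-lives were given no test, and their standard errors take the mean at 0 h as exact and so leave out its spread.

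The uptake of label was the last comparison. After 9 h of 4sU, Eef1a1 had reached 71.2%, 67.6% and 59.3% of its mean 15 h rate at D0 and 45.5%, 36.1% and 43.3% at D6, with no overlap between the states. Eef2 had reached 74.6%, 69.3% and 71.4% at D0 and 57.3%, 66.3% and 64.7% at D6, also with no overlap. Nap1l1 had reached 76.9%, 66.1% and 103% at D0 and 25.7%, 0.6% and 46.9% at D6, with no overlap. The pooled rate had reached 87.5% (SD 3.3, n = 3) and 77.8% (SD 13, n = 3). All libraries of D6 were below all of D0 in 21.2% of 9899 transcripts, above in 4.83%, and either in 26%, against 3 members below. Without libraries 26 and 72, which left 2 libraries for uptake at D0, Eef1a1 stood at 75.4% and 79.4%, Eef2 at 72.8% and 78.3% and Nap1l1 at 68.7% and 80.02% there, still above all of D6. Tpt1 stood at 72.4% and 52.5% there, below the 232% and 97.2% of the 2 D6 libraries in which it was covered. The shares over all transcripts were not counted without libraries 26 and 72. Npm1 had reached 73.7% (SD 15, n = 3) and 68.4% (SD 21, n = 3), with overlap. The second 3′ UTR of Npm1 had reached 52.9%, 69.5% and 56.3% at D0 and 83.9%, 81.8% and 78.5% at D6, so that here D6 lay above D0 with no overlap. Relative to all mRNAs edgeR called none of 14426 transcripts in either state, with 602 at D0 and 623 at D6 at an unadjusted p under 0.05. DESeq2 called 7 and 27, and limma 1 and 14, no member among them. The estimate was below 0 for all 8 members at D0 and for 7 at D6, with medians of -0.27 and -0.50 against 0.13 and -0.10 over all transcripts. The difference between the states was called for none by edgeR (758 at an unadjusted p under 0.05), for 23 by DESeq2 and for 9 by limma, none of them a member.

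Synthesis half-lives take the mean rate at 15 h as the full level of label, as the study took the start of its catabolic assay. Whether label was still rising then was not tested, and if it was, these half-lives are too short. From 0 and 9 h they met the criterion for 8 members at D0 and 5 at D6. For Eef1a1 they were 347 min (SE 22) at D0 and 695 min (SE 40) at D6, and for Eef2 296 min (SE 16) and 379 min (SE 18). Npm1 had 279.96 min (SE 87) and 325 min (SE 69), and Pabpc1 553 min (SE 139) and 576 min (SE 54). With all times and the hours of the design, Eef1a1 had 623 min (SE 129) and 1029.9 min (SE 172) and Eef2 563 min (SE 120) and 695 min (SE 157). With the times that the labels give, these were 419.5 min (SE 42) and 744 min (SE 50) for Eef1a1 and 373 min (SE 39) and 468 min (SE 55) for Eef2. In each of these fits the half-life of Eef1a1 was longer at D6 by more than the standard errors. These leave out the spread of the 15 h mean by which the rates were divided. With single libraries left out, the values of Eef1a1 from 0 and 9 h ranged from 281 to 392 min at D0 and from 637 to 740 min at D6. For Eef2 it was longer by more than each single standard error from 0 and 9 h and with the labels' times. With the hours of the design it was longer by less than the standard error at D6. Without library 26 or library 72, the value of Eef1a1 at D0 from 0 and 9 h was 281 min and 316 min. Without library 26 that of Pabpc1 at D0 was 326 min (SE 107), below its value at D6, and with single libraries left out it ranged from 326 to 755 min. The second 3′ UTR of Npm1 had 413 min (SE 38) at D0 and 222 min (SE 7.0) at D6. The D6 value rests on library 7, whose rate at 15 h was 6.97% against 3.85% and 3.7% in the other two, and with single libraries left out it ranged from 16.4 min, without library 7, to 287 min.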

How the data were processed

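SLAM-seq of P19 cells was analysed from per-library tables of 3′ UTR intervals. Per the file headers and the study's methods, the authors sequenced QuantSeq 3′ libraries, aligned reads to mm10 and counted with slamdunk 0.3.3. The methods name a GENCODE annotation for the 3′ UTRs, whereas the rows carry RefSeq names and were taken as RefSeq 3′ UTRs. The deposited tables hold counts (reads, T positions covered, conversions), a conversion rate as a fraction, and CPM of mapped reads. All 39419 intervals were read, summed per transcript, and paired with symbols for 28147 of 28190 mRNAs. The columns of reads placed at several sites held 0 throughout. Counts were used, and fractions and CPM were computed from them again; CPM is scaled to 1000000 reads in distinct 3′ UTRs. No column of another series was present (0).

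Reads were tested with edgeR 4.0.16 (quasi-likelihood, TMM, filterByExpr) in R 4.3.3, and conversions with the same test, an offset of the log of covered T positions times the pooled mRNA rate of the library, and at least 1000 covered T positions on average (0 was set to 0.5). p-values were adjusted by Benjamini-Hochberg over all transcripts tested, threshold 0.05. Standard errors were derived from the F statistic. Alternatives used DESeq2 1.42.0, limma 3.58.1 (floor 0.05%), other filters, factors, references, left-out libraries and hours. Half-lives (scipy 1.17.1, Python 3.11.15) were kept with R squared over 0.6 and up to 5000 min. The scripts were tested on simulated data. Reads carry no molecular identifiers. Figures were drawn with matplotlib 3.10.9.

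All 9 members and, of each other list, Eef1a2 and the 2 largest changes in each direction among those called were named; ribosomal protein genes were only counted. Genes of like pattern were the 5 with the highest correlation of log2(CPM + 1) and at least 100 CPM. Members and lists were chosen with earlier results of these data known. The labels name no batch. Promoters of chromosome 18 were left out of the search.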

Additional observations from a re-analysis of the deposited data

How the results depend on the processing

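Members called lower in reads at D6 numbered 3 with edgeR, 4 with DESeq2 and 2 to 3 with single libraries left out; the estimates of Npm1 and Nap1l1 stayed past the threshold under all 11 alternatives run. DESeq2 called 3234 transcripts and 1 transcript per identical 3′ UTR left 1357; with single libraries left out it was 1253 to 2307. For 15 h of 4sU at D0, D6 and between the states, counts were 112, 130 and 75 with DESeq2, 69, 26 and 38 with no filter, 3 and 6 (D0, D6) with RLE factors, 4 and 1 (D6 and between) with 1 transcript per 3′ UTR, and 33, 18 and 12 without the 4 libraries that stood apart, an alternative chosen after seeing the data. Single libraries left out gave 1 to 22, 0 to 21 and 0 to 9.

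For relative labeling after 15 h, counts were 15 with DESeq2, 8 with at least 10000 covered T positions, 30 with limma and 4 without the 4 libraries, and 0 to 4 with single libraries left out. For label kept at D0 and D6 they were 717 and 564 with DESeq2, 372 and 515 with limma, 95 and 74 with at least 10000 positions, 52 and 67 without the 4 libraries, 7 to 67 and 15 to 64 with single libraries left out, and at D0 45 with the median rate and 14 with at least 100 positions. Between the states they were 75 with DESeq2, 13 with limma and 0 to 10 with single libraries left out. For label taken up at D0, D6 and between the states they were 7, 27 and 23 with DESeq2 and 1, 14 and 9 with limma; single libraries left out gave 0 to 4 at D6 and 0 to 1 between the states. The cause of these shifts was not tested.

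Members with a half-life changed as follows. With no R squared minimum, decay gave 7 at D0 and 7 at D6 for all times and 8 at D0 for 0 and 9 h, and synthesis gave 8 and 8 for all times and 8 at D6 for 0 and 9 h. The hours of the sample labels gave 3 and 6 for decay and 8 and 5 for synthesis. Single libraries left out gave 0 to 3 (D0) and 1 to 6 (D6) for decay and 3 to 6 (D0) for synthesis over all times. The members whose states did not overlap in label kept numbered 4, and 2 to 6 with single libraries left out. The 2 were Npm1 and Eef1d, without library 27. The share of 18.2% over all transcripts was counted with all libraries only, so that the range of 2 to 6 has no such share beside it.

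Some estimates near 0 changed sign. In relative labeling, Eef2 was at -0.026 with the median rate and -0.056 with limma, and with single libraries left out Eef2 lay between -0.0093 and 0.052, Pabpc1 between -0.12 and 0.61 and Tpt1 between -0.74 and 0.26. In label kept at D6, Npm1 was at 0.62 with the median rate and 0.043 with limma and Eef1d at 0.61 with the median rate, which moved the median over all transcripts there from -0.66 to -0.08. With single libraries left out, Npm1 lay there between -0.16 and 0.088, Pabpc1 between -0.27 and 0.53, Nap1l1 between -0.042 and 0.27 and Eef1d between -1.18 and 0.46. Nap1l1 lay between -0.31 and 0.42 at D0 and, between the states, from -0.32 to 0.40. No paired analysis was possible because the labels number each library once, so that groups share no replicate numbers. Coverage was thin in some D6 libraries, down to 29 covered T positions for Eef1d and 135 for the second 3′ UTR of Npm1. A D6 library of 9 h uptake had no read of Tpt1. The part of depth in the spread of these values was not tested.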
